A study of Macaca mulatta with 8 samples.

Results

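NRF2, encoded by NFE2L2, is the transcription factor that drives the antioxidant and detoxifying genes of a cell. KEAP1 holds it for degradation until reactive cysteines of KEAP1 are modified, after which NRF2 pairs with a small MAF protein such as MAFG at antioxidant response elements. Its classical targets make and recycle glutathione, keep thioredoxin and peroxiredoxins reduced, supply NADPH, degrade heme and conjugate or export electrophiles. Isothiocyanates, such as sulforaphane, are known as inducers of this system, and MRS2578, an antagonist of the UDP receptor P2RY6, carries isothiocyanate groups. The question here was how the transcripts of this system stood in microglia exposed to MRS2578.

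The genes were 34 listed symbols of the NRF2, glutathione and antioxidant system, looked up by symbol among the 35432 genes counted. They were found for 33 of the 34, and all 33 passed the filter on low counts, which left 12131 genes for testing. TXN, thioredoxin itself, carries no symbol in the files and is described apart by its identifier. Microglia were isolated from the frontal subcortical white matter of 4 adult rhesus macaques (R07110, R12016, R02046 and R14143) and cultured for 8 days in serum and M-CSF. On day 7 each culture received 10 µg/mL uLPS, an ultrapure lipopolysaccharide that stimulates TLR4, for 16 h, either without MRS2578 (the uLPS group, n = 4) or after 1 h with 5 µM MRS2578 (n = 4). RNA-seq gave 1 library per donor and condition. There was no library without uLPS and none with MRS2578 alone, so each difference is between uLPS with MRS2578 and uLPS. The labels do not give the vehicle of the uLPS libraries. The paper reports DMSO controls for all its assays with MRS2578, without naming the sequenced libraries.

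Total counts ran from 9231109 to 32790348 per library, and the 33 genes took between 0.842% and 1.17% of them. Levels are given as CPM, counts scaled to library size with TMM factors, and differences as log2 CPM. The libraries of R02046 stood apart in their labelling. The CPM values published with the study match R02046's libraries with the conditions the other way round, whereas those of the other 3 donors match their labels. Results are therefore given with the deposited labels, with R02046's libraries exchanged, which turns the sign of every R02046 difference, and without R02046. Of the 13 microglial markers in the files, 12 had counts in every library, with a summed level of 4886 to 6318 CPM with uLPS and 4388 to 5492 CPM with MRS2578. Fibroblast markers summed to 136 to 1261 CPM with uLPS and 261 to 579 CPM with MRS2578, the highest being R14143 with uLPS. Astrocyte markers summed to 88.9 to 205 and 112 to 191 CPM, oligodendrocyte markers to 239 to 407 and 223 to 304 CPM, and endothelial and mural markers to 216 to 283 and 204 to 354 CPM. Lymphocyte markers summed to at most 51.1 CPM, with CD3G and NKG7 at 0 throughout. Some of these sums rest on few genes. Of the microglial markers, 1 of 13 was under 1 CPM in every library. So were 4 of 7 oligodendrocyte, 3 of 8 endothelial and mural and 7 of 8 lymphocyte markers. In such bulk libraries, fewer cells of a type and less RNA per cell cannot be told apart.

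HMOX1, heme oxygenase 1, was higher with MRS2578 in the 3 donors other than R02046, and NFE2L2 was lower in those donors. The other 31 genes had fitted log2 fold changes between -0.34 and 0.51 with the deposited labels. None of the 33 genes passed an adjusted p of 0.05 with the labels, where 0.0% of the 12131 genes passed in edgeR's quasi-likelihood test. The paper does report differentially expressed genes from edgeR at an FDR under 0.05, without giving the design of its test. Its list was not compared with the 33 genes here. With R02046 exchanged, NFE2L2 passed, as the single member among the 0.618% of all genes that did (0.519% of all genes in the downward direction). Without R02046, 0 of the 33 passed, beside 0.0% of the 12295 genes tested. At an unadjusted p of 0.05 the count was 1 of the 33 with the labels (5.14% of all genes), 7 with the exchange (16.4%) and 5 without R02046 (13.6%). With the exchange, DESeq2's Wald test (4.81% of all genes) and edgeR's likelihood ratio test (5.08%) each called NFE2L2, HMOX1 and GCLC at an adjusted p of 0.05. With the exchange and without R14143 (7.57% of all genes), edgeR's quasi-likelihood test called 6 members, these 3 and EPHX1, GPX4 and SOD1. Groups that did not overlap were found for 0 of the 33 with the labels (1.08% of all genes), and for NFE2L2 alone with the exchange (2.97%) and in the 3 donors other than R02046 (11.1%).

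**Figure D1:**
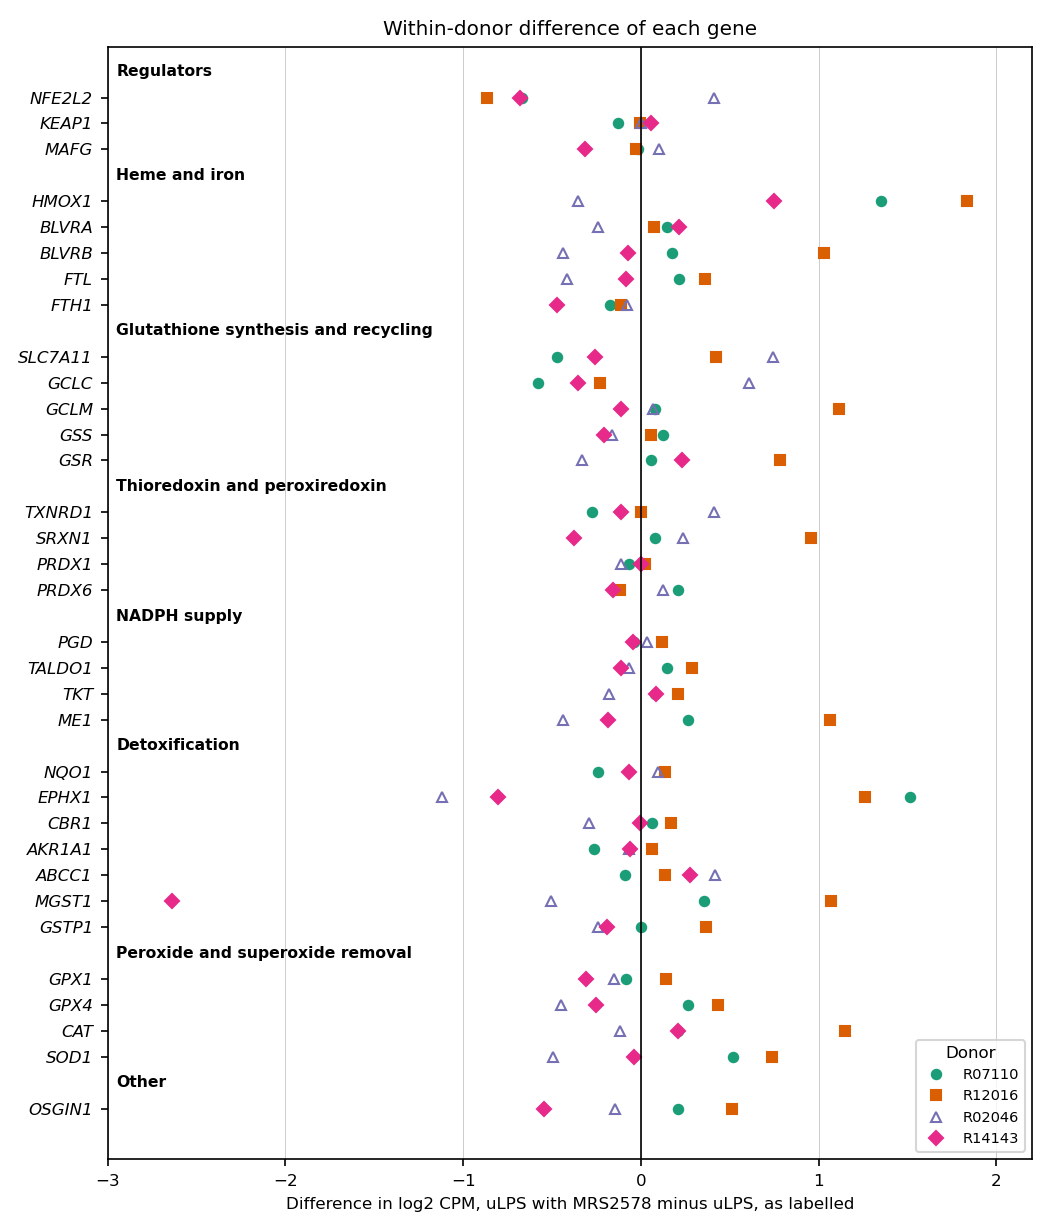
Difference in log2 CPM between uLPS with MRS2578 and uLPS (x axis) for each of the 33 genes, grouped by role, with 1 marker per donor and the labels as deposited. HMOX1 stands to the right and NFE2L2 to the left in the 3 donors with filled markers, with R02046 (open triangles) on the other side of 0 for both.

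Among the regulators, NFE2L2 (chr12:64326140-64382891 of Mmul_10, minus strand) was at 379, 432, 226 and 408 CPM with uLPS in R07110, R12016, R02046 and R14143. With MRS2578 it was at 238, 237, 300 and 255 CPM in the same order. R02046, as labelled, was higher with MRS2578 and the other 3 donors were lower, so the groups overlapped. The within-donor differences were -0.67, -0.87, 0.41 and -0.68. With the labels, the mean was 361 ± 93.0 CPM with uLPS and 258 ± 29.3 CPM with MRS2578 (SD, n = 4). The fitted log2 fold change was -0.46 (SE 0.21, adjusted p = 0.878 by edgeR's quasi-likelihood test). With R02046 exchanged, the means were 380 ± 57.6 and 239 ± 11.9 CPM (SD, n = 4) and the groups no longer overlapped. The fitted change was then -0.66 (SE 0.097, adjusted p = 0.0390 by edgeR's quasi-likelihood test). This call was lost without R07110, at an adjusted p of 0.303, and without R12016, at 0.133 in the same edgeR test. Without R02046 the change was -0.74 (SE 0.10, adjusted p = 0.124 by edgeR's quasi-likelihood test).

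KEAP1 (chr19:10244340-10257891, minus strand), the cysteine-rich adaptor that targets NRF2 for degradation, was at 76.3, 66.1, 74.7 and 70.1 CPM with uLPS and at 69.9, 65.8, 74.7 and 72.8 CPM with MRS2578. The values of both groups lay within the same narrow range. No donor differed by more than 0.13 in either direction, and the fitted log2 fold change was -0.019 (SE 0.089, adjusted p = 0.986 by edgeR's quasi-likelihood test). MAFG, a small MAF partner of NRF2, differed by between -0.32 and 0.10 within donors.

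HMOX1, which opens the heme ring and thereby yields biliverdin, iron and carbon monoxide, lies at chr10:16154014-16168020 on the minus strand. It went from 447 CPM with uLPS to 1138 CPM with MRS2578 in R07110. The values were 564 and 2011 CPM in R12016 and 291 and 488 CPM in R14143. In R02046 it was at 1056 CPM in the library labelled uLPS and 826 CPM in that labelled MRS2578. The level without MRS2578 in R02046 was thus above that of any other uLPS library under either assignment, and the groups overlapped under both. The ratios of MRS2578 to uLPS were 2.55, 3.57, 0.782 and 1.68 in R07110, R12016, R02046 and R14143. With the labels the fitted log2 fold change was 0.90 (SE 0.34, adjusted p = 0.878 by edgeR's quasi-likelihood test). It was 1.07 with R02046 exchanged (SE 0.22, adjusted p = 0.0828 in the same edgeR test) and 1.31 without R02046 (SE 0.22, adjusted p = 0.138 in the same edgeR test). With the exchange, leaving out R14143 brought HMOX1 past the threshold, at an adjusted p of 0.0293 by edgeR's quasi-likelihood test. HMOX1 and NFE2L2 were the genes of the 33 with 1 sign and a difference of at least 0.5 in each of R07110, R12016 and R14143, a pattern held by 2.47% of all genes, 1.15% upward and 1.33% downward.

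**Figure D2:**
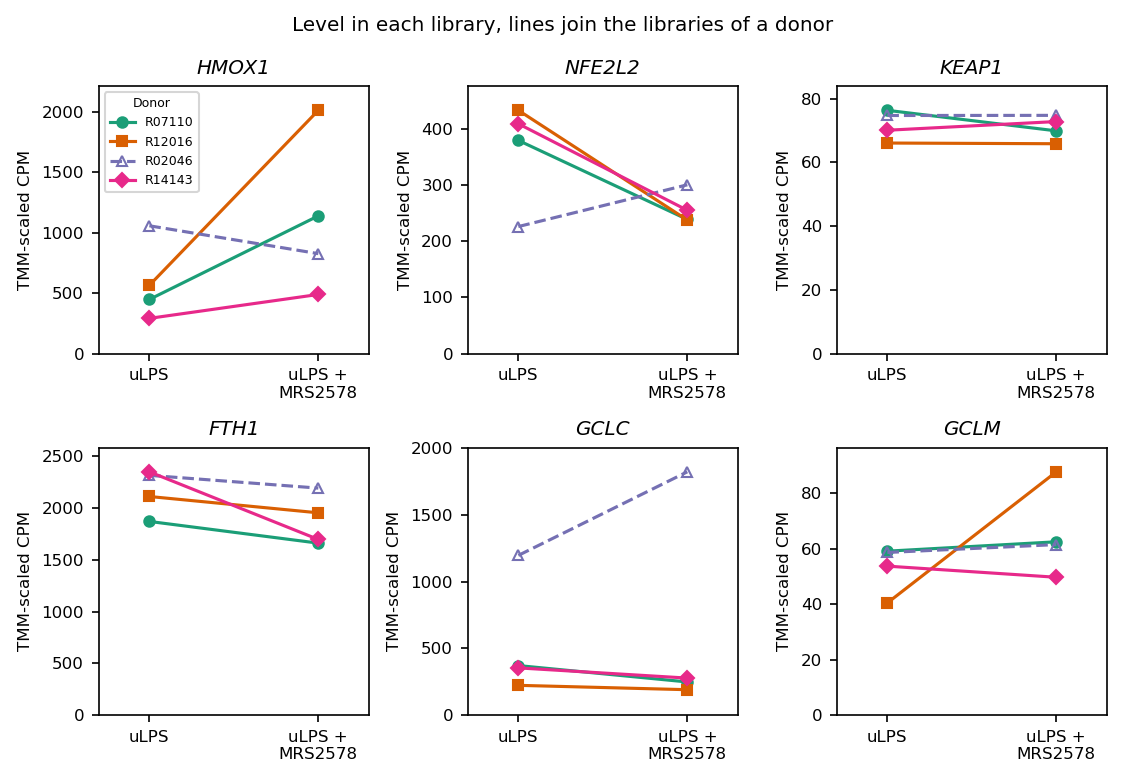
TMM-scaled CPM (y axis, from 0) of HMOX1, NFE2L2, KEAP1, FTH1, GCLC and GCLM in each library as labelled, with a line joining the libraries of a donor. R02046 (dashed) runs against the other 3 donors for HMOX1, NFE2L2 and GCLC, and KEAP1 is flat.

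In the 3 donors where HMOX1 was higher, the other heme and iron genes differed by less than HMOX1 did. BLVRA and BLVRB, the biliverdin reductases, differed by between -0.24 and 0.22 and between -0.44 and 1.03 within donors. FTH1, the ferritin heavy chain that oxidizes iron for storage, was at 1871, 2112, 2317 and 2351 CPM with uLPS and at 1661.5, 1955, 2193 and 1697 CPM with MRS2578 in R07110, R12016, R02046 and R14143. It was the member that was lower in each of the 4 donors as labelled (differences -0.17, -0.11, -0.079 and -0.47), a pattern found in 6.49% of all genes, and the groups overlapped. Its fitted log2 fold change was -0.21 (SE 0.14, adjusted p = 0.884 by edgeR's quasi-likelihood test). FTL, the ferritin light chain, was at 337, 416, 532 and 405 CPM with uLPS and at 391, 533, 398.5 and 382 CPM with MRS2578. FTL was thus higher in R07110 and R12016 and lower in R02046 and R14143, with a fitted log2 fold change of 0.019 (SE 0.15, adjusted p = 0.992 by edgeR's quasi-likelihood test). That estimate turned negative without R07110 or without R12016. Both ferritin genes are known to have near-identical processed copies, so their counts of unique reads are uncertain.

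Promoter sequence is shown for HMOX1 and for FTH1, TXNRD1 and PRDX1, because the NRF2 system is defined by a DNA element and HMOX1 is known to respond to heat shock in some species. These are the 250 bases before the outermost annotated 5′ end in RefSeq, build Mmul_10, written 5′ to 3′ along the gene. The first lies at chr10:16168021-16168270 (minus strand), the others at chr14:12157778-12158027, chr11:103994068-103994317 and chr1:178900217-178900466 (plus strand). Capitals mark a match to GAANNTTC, the letters searched for as a heat shock element, in HMOX1. In the others they mark a match to the antioxidant response element core (TGACNNNGC, on either strand).
HMOX1: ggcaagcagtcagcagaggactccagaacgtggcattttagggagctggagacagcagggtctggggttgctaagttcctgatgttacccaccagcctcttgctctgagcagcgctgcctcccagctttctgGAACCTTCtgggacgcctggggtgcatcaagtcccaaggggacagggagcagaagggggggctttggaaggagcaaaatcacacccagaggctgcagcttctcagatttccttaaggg
FTH1: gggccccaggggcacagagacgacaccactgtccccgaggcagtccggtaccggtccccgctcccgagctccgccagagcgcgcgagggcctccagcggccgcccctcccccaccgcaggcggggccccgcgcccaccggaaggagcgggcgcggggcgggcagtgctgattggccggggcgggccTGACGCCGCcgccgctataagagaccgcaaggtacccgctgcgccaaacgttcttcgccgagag
TXNRD1: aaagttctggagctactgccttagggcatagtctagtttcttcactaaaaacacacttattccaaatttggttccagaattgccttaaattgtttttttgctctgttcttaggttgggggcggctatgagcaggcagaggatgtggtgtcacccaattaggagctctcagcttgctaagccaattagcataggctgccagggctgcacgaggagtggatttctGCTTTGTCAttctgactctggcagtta
PRDX1: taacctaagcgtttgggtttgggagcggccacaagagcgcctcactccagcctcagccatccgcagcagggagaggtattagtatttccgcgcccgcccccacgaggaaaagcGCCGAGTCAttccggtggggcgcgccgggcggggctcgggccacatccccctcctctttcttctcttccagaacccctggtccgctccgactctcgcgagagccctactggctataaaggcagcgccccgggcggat
The match in HMOX1 begins 118 bases before the 5′ end, and 5.16% of 20751 protein-coding promoters of this length hold those letters. It was the single match to GAANNTTC among the 33 listed genes with a promoter, which include TXN and leave out CBR1. The antioxidant response element core was found in 5 of these 33 (15.2%), namely FTH1, GSR, TXNRD1, PRDX1 and OSGIN1, beside 10.7% of all promoters. The AP-1 letters TGANTCA, which can overlap the core, were in none of the 33, beside 5.16% of all promoters. HMOX1 had no match to the core in this window, and the 5 genes that had one differed by between -0.55 and 0.78 within donors. A match is letters in a window and was not tested as a binding site. Enhancers lie outside it.

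Glutathione is made from cystine taken up by SLC7A11, joined to glutamate by the ligase of GCLC and GCLM and completed by GSS, and GSR reduces it after use. GCLC (chr4:116040781-116086499, plus strand) was picked out after its values were seen. Its catalytic subunit message was at 371, 222, 1196 and 353 CPM with uLPS and at 248, 190, 1823 and 277 CPM with MRS2578 in R07110, R12016, R02046 and R14143. Both libraries of R02046 lay above every other library, so the donors differed over 2.85 on the log2 scale, more than any other member. The within-donor differences were -0.58, -0.23, 0.61 and -0.35. The fitted log2 fold change was -0.14 with the labels (SE 0.20, adjusted p = 0.934 by edgeR's quasi-likelihood test). With R02046 exchanged it was -0.44 (SE 0.099, adjusted p = 0.0964 in the same edgeR test), and without R02046 -0.39 (SE 0.11, adjusted p = 0.243 in the same edgeR test). GCLM, the modifier subunit of the same ligase and also chosen after its values were seen, had another pattern. It went from 59.1 to 62.4 CPM in R07110, from 40.4 to 87.7 CPM in R12016, from 58.6 to 61.4 CPM in R02046 and from 53.7 to 49.7 CPM in R14143. R12016 alone stood out, by 1.12 on the log2 scale. SLC7A11 differed by -0.47, 0.43, 0.75 and -0.26 within the donors, GSS by between -0.21 and 0.12, and GSR by between -0.33 and 0.78. None of the 5 passed an adjusted p of 0.05 in edgeR's quasi-likelihood test under any of the 3 assignments.

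Thioredoxin reductase 1, encoded by TXNRD1, returns oxidized thioredoxin to use, and the peroxiredoxins spend it on peroxides. TXNRD1 differed by -0.28, 0.0014, 0.41 and -0.11 in R07110, R12016, R02046 and R14143, with R12016 level and R02046 the highest. PRDX1 differed by no more than 0.11 in either direction in any donor. PRDX6, a peroxiredoxin that uses glutathione, was at 699, 892, 713 and 859 CPM with uLPS and at 806.5, 823, 777 and 770 CPM with MRS2578. It was higher in R07110 and R02046 and lower in the other two, and the groups overlapped (log2 fold change 0.014, SE 0.12, adjusted p = 0.992 by edgeR's quasi-likelihood test). SRXN1, which repairs overoxidized peroxiredoxins, differed by between -0.38 and 0.96, the largest in R12016. The row that the reference tables name TXN (ENSMMUG00000051893) was at 124, 134, 169 and 91.6 CPM with uLPS and at 147, 162, 129 and 72.4 CPM with MRS2578. Its fitted log2 fold change was -0.053 (SE 0.14, adjusted p = 0.969 by edgeR's quasi-likelihood test).

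NADPH for these reductases comes from PGD, TALDO1 and TKT of the pentose phosphate pathway and from the malic enzyme ME1. The 3 pentose phosphate genes differed by between -0.18 and 0.29 within donors. ME1 differed by 0.27, 1.07, -0.44 and -0.19 in R07110, R12016, R02046 and R14143. The fitted changes of the 4 genes were positive, at 0.019 to 0.19 with the labels, and the lowest adjusted p among them was 0.933 in edgeR's quasi-likelihood test.

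NQO1, a quinone reductase often used as a readout of NRF2 activity, was at 99.6, 65.7, 52.3 and 69.3 CPM with uLPS and at 84.3, 72.0, 56.0 and 66.2 CPM with MRS2578. It was lower in R07110 and R14143 and higher in R12016 and R02046, by at most 0.24 in either direction, and the groups overlapped. It was singled out for that use with its values known. GSTP1, which conjugates glutathione to electrophiles, was at 362, 306, 418 and 358 CPM with uLPS and at 362, 394, 354 and 314 CPM with MRS2578. R12016 was higher, R07110 was level and R02046 and R14143 were lower (log2 fold change -0.016, SE 0.13, adjusted p = 0.992 by edgeR's quasi-likelihood test). The sign of the GSTP1 estimate turned positive with R02046 exchanged, without R02046, without R14143 and with scaling by library totals. EPHX1, an epoxide hydrolase, differed by 1.51 in R07110 and 1.26 in R12016 and by -1.12 in R02046 and -0.80 in R14143, on 12 to 121 counts a library. MGST1, a membrane-bound glutathione transferase, rested on 6 to 52 counts and ran from -2.64 in R14143 to 1.07 in R12016. The carbonyl and aldehyde reductases CBR1 and AKR1A1 and the glutathione conjugate exporter ABCC1 differed by between -0.29 and 0.42.

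Among the enzymes that remove peroxide and superoxide, CAT and SOD1 had the higher fitted changes, and both were picked out after their values were seen. CAT, catalase, went from 43.9 to 50.8 CPM in R07110, from 30.4 to 67.4 CPM in R12016, from 39.7 to 36.6 CPM in R02046 and from 32.4 to 37.4 CPM in R14143. SOD1, the cytosolic superoxide dismutase, went from 67.4 to 96.5, from 68.9 to 115, from 117 to 82.9 and from 68.2 to 66.3 CPM in the same order. Among the libraries labelled MRS2578 both were highest in R12016, though with the exchange SOD1 was highest in R02046, and the groups overlapped for both. The fitted log2 fold changes with the labels were 0.36 for CAT (SE 0.20, adjusted p = 0.878 by edgeR's quasi-likelihood test) and 0.18 for SOD1 (SE 0.20, adjusted p = 0.922 in the same edgeR test). With R02046 exchanged they were 0.42 (SE 0.17, adjusted p = 0.283) and 0.43 (SE 0.13, adjusted p = 0.164), both by edgeR's quasi-likelihood test. The glutathione peroxidases GPX1 and GPX4 differed by between -0.31 and 0.14 and between -0.45 and 0.43. OSGIN1, an oxidative stress induced growth inhibitor, differed by between -0.55 and 0.51.

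**Figure D3:**
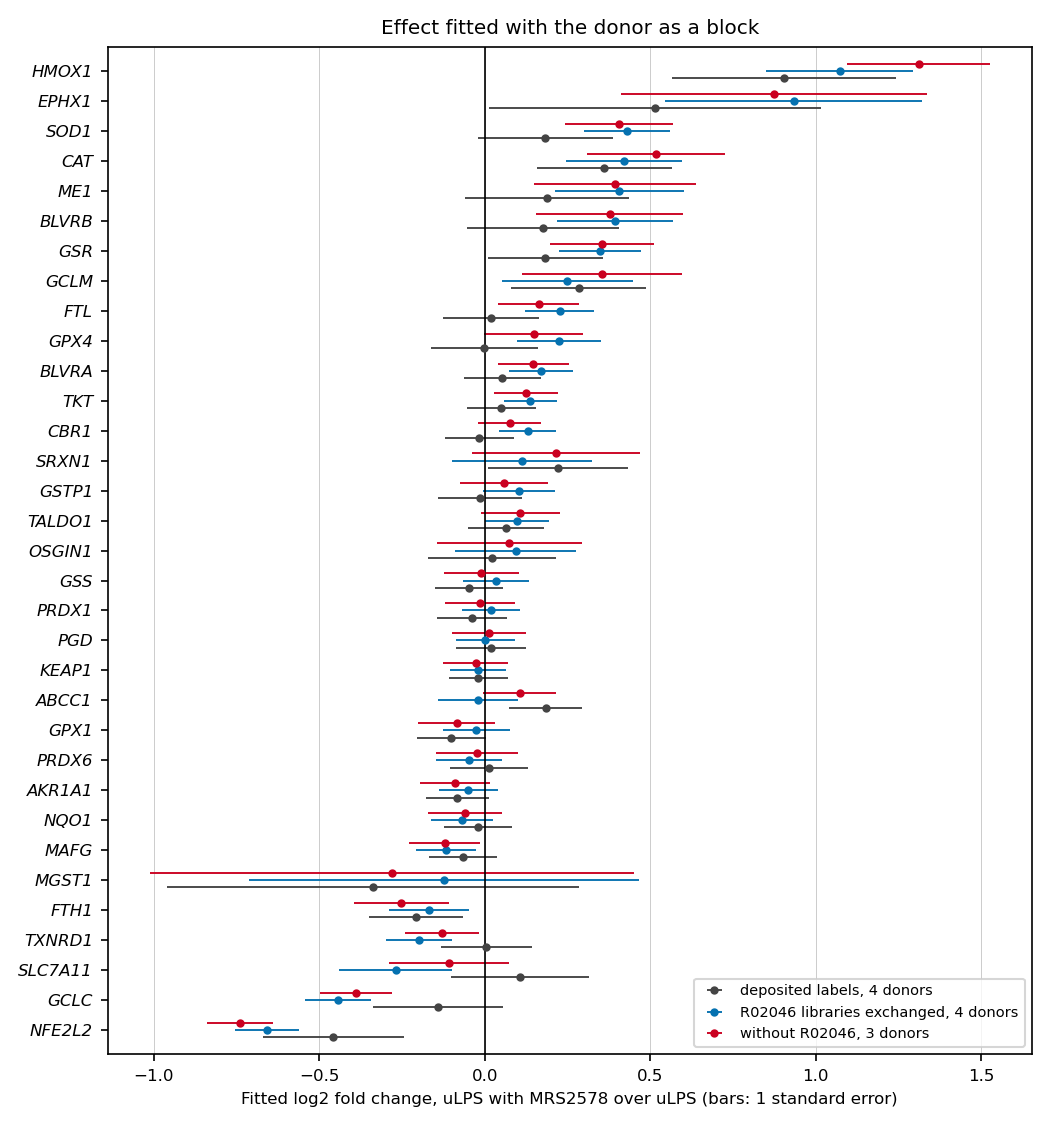
Fitted log2 fold change of uLPS with MRS2578 over uLPS (x axis, bars 1 SE) of the 33 genes with the deposited labels (grey), with R02046 exchanged (blue) and without R02046 (red). NFE2L2 is lowest and HMOX1 highest under all 3, and 31 of the 33 estimates with the labels lie within 0.5 of 0.

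The donors differed in how far the genes as a group moved. The median within-donor difference of the 33 genes was highest in R12016, at 0.21, and was 0.080 in R07110, -0.11 in R14143 and -0.12 in R02046 as labelled, whereas the medians of all genes tested lay between -0.025 and 0.0019. With scaling by library totals, the medians of the 33 were 0.35 in R12016, 0.14 in R07110, -0.043 in R14143 and -0.17 in R02046. A change of scaling moves all genes of a donor together, and the medians of all genes under library totals are not given here. In R12016, 27 of the 33 were higher with MRS2578, where 49.8% of all genes were, and 11 were higher by at least 0.5, where 16.3% of all genes were. The 7 that were higher by at least 1 in R12016 (6.98% of all genes) were HMOX1, BLVRB, GCLM, ME1, EPHX1, MGST1 and CAT. In R14143, 8 of the 33 were higher, where 46.7% of all genes were. In R07110 the count was 19 (50.2% of all genes) and in R02046 it was 12 as labelled (49.8%). Each donor is 1 pair of libraries, so a donor's shift has no replicate check. In R12016 the summed fibroblast markers went from 136 to 261 CPM and the microglial markers from 6318 to 5220 CPM, and in R14143 the fibroblast markers went from 1261 to 476 CPM and the microglial markers from 4886 to 4388 CPM. The share of counts from mitochondrial genes went from 0.313% to 0.187% in R12016 and from 0.275% to 0.187% in R07110, beside 0.310% and 0.298% in R02046 as labelled and 0.356% and 0.337% in R14143. The part of these in the result was not tested.

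**Figure D4:**
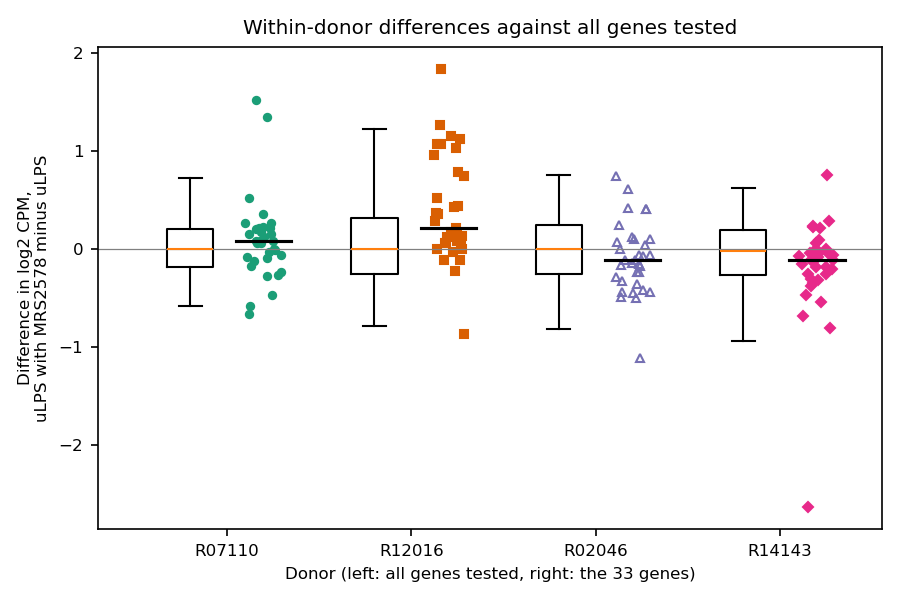
Difference in log2 CPM between uLPS with MRS2578 and uLPS (y axis) in each donor as labelled, with a box for all genes tested (line at the median, box from quartile to quartile, whiskers from the 5th to the 95th percentile) beside the 33 genes as points with a bar at their median. The points sit above the box's median in R12016 and below it in R02046 and R14143.

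Across donors, 1 of the 33 genes had a single sign in all 4 as labelled, where 12.9% of all genes had. With R02046 exchanged it was 8 of the 33 (23.8% of all genes), namely HMOX1, BLVRA, GSR, TKT and CAT upward and NFE2L2, MAFG and GCLC downward. In the 3 donors other than R02046 it was 9 (36.8% of all genes), with FTH1 added downward. These shares are close to or under those of all genes. The median fitted log2 fold change of the 33 was 0.019 with the labels (all genes -0.0097), 0.093 with the exchange (all genes 0.0012) and 0.074 without R02046 (all genes -0.0035). Without R12016 it turned to -0.054 with the labels and to -0.019 with the exchange. Scaling by library totals gave 0.074 with the labels, without a median of all genes under that scaling to set beside it.

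Donor differences were as large as those with MRS2578 for many of the genes. For 17 of the 33, the range over the donors' mean log2 CPM was larger than the largest within-donor difference, and the median range was 0.543. GCLC came first, then SLC7A11 with a range of 1.85, lowest in R12016 and highest in R14143, and EPHX1 with 1.79. NFE2L2 was on the other side, with a donor range of 0.31 and a largest within-donor difference of 0.87. Such ranges were not computed for all genes tested, so the count of 17 has no share beside it. The paper reports that whole transcriptomes grouped by donor rather than by condition.

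Scaled by exon length, where genes can be set beside each other approximately, the ferritin heavy chain led. The length was that of all exons annotated for a gene in RefSeq, whereas the counts are per Ensembl gene. The gene models can differ, and a gene with exons that these cells do not use comes out lower. The mean over the 8 libraries was 2319 CPM per kb for FTH1, 567 for GSTP1, 562 for FTL, 516 for PRDX6 and 478 for HMOX1. Neighbours in this order overlapped from GSTP1 to HMOX1, and the libraries of HMOX1 spanned 163 to 1126 CPM per kb. ME1, MGST1 and EPHX1 were lowest, at 4.90, 1.35 and 1.09 CPM per kb. CBR1 has no length in the reference annotation. Of the 33 genes, 9 have a span, introns included, that overlaps a gene on the opposite strand (AKR1A1, BLVRA, EPHX1, FTH1, GCLC, GSR, MAFG, ME1 and PRDX1). As the strand setting of the counting is not given in the sources used here, their counts could hold reads of the partner. EPHX1, SOD1 and TXNRD1 overlap a gene on the same strand. Whether exons overlap was not checked.

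**Figure D5:**
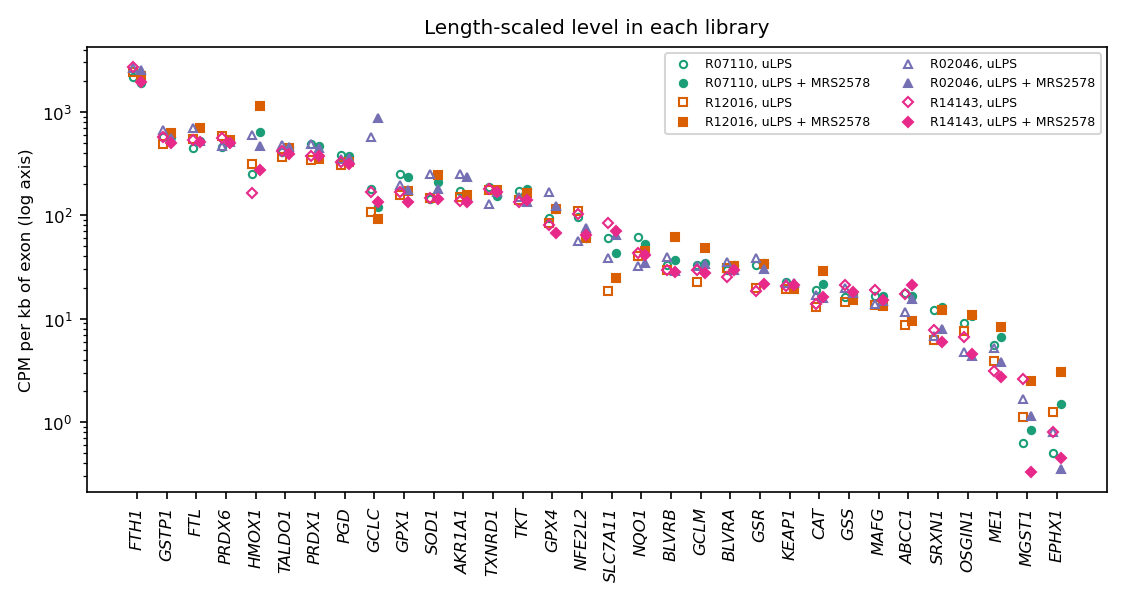
TMM-scaled CPM per kb of exon (y axis, log scale) of the 32 genes with a length, ordered by mean, with an open marker for uLPS and a filled marker for uLPS with MRS2578 in each donor as labelled. FTH1 stands above the rest at 2319 CPM per kb, and the 8 libraries of HMOX1, GCLC and SLC7A11 spread widely.

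Other genes of the pathway were counted from a list of 104, of which 84 were tested. They comprise NRF2 partners and degradation factors, further NRF2 targets, glutathione enzymes, peroxiredoxins and thioredoxins, and superoxide, heme and iron genes. None passed an adjusted p of 0.05 in either direction by edgeR's quasi-likelihood test with the labels, with R02046 exchanged or without R02046. In the 3 donors other than R02046, 14 were higher and 15 lower in each (17.0% and 19.8% of all genes). Of the 84, 1 met the rule of 1 sign and at least 0.5 in those 3 donors, beside 2.47% of all genes (1.33% downward). That gene was CHAC1, a glutathione-degrading enzyme that rises in the unfolded protein response. It went from 39.9 to 16.8 CPM in R07110, from 36.2 to 18.0 CPM in R12016, from 4.70 to 4.24 CPM in R02046 and from 72.0 to 5.65 CPM in R14143. It was thus lower with MRS2578 in each donor as labelled, with a fitted log2 fold change of -1.55 (SE 0.52, adjusted p = 0.878 by edgeR's quasi-likelihood test). The change was -1.58 with R02046 exchanged (SE 0.49, adjusted p = 0.173 in the same edgeR test). It was -1.89 without R02046 (SE 0.52, adjusted p = 0.232 in the same edgeR test).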

How the data were processed

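The authors deposited whole-number counts of reads per Ensembl gene, without normalization, for 8 libraries. The paper's methods name fastp, STAR, SAMtools and HTSeq on Mmul_10 with unique reads within exons, whereas the submitters' processing notes list Trimmomatic 0.30, TopHat2 2.0.14, SAMtools 1.3 and HTSeq 0.6.1p1. The annotation release and the strand setting are not given in the sources used here. Reads mapping to several places were left out, which can lower genes with near-identical copies, such as FTH1 and FTL with their pseudogenes.

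Counts were tested with edgeR (version 4.0.16), using filterByExpr (minimum count 10), TMM scaling and a quasi-likelihood F-test blocked on donor, with p adjusted by Benjamini-Hochberg over all genes tested. Log2 CPM values carry a prior count of 2. The SE given with edgeR's fits was derived from the test, as the absolute log2 fold change divided by the square root of its F statistic. Both libraries of a donor come from 1 animal, and their deviations from the group means correlated at 0.602, 0.552, 0.458 and 0.562. No pair of libraries was a duplicate (chi-square per degree of freedom at least 19.6). On simulated data with 200 genes changed 3-fold, 201 of 12232 genes were called and 192 of the 200 recovered. The simulated counts had a fixed dispersion of 0.05 and no donor effects. They check the code and cannot show how often smaller changes would be found in these donors. A count of 0 allows up to 3 counts, for counting error only. Alternatives were DESeq2, the likelihood ratio test, other scalings and filters, no block, each donor left out, and R02046 exchanged.

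Members and lists were chosen with earlier results of these data known. Values in every library are given for NFE2L2, KEAP1, HMOX1, the 5 members highest per kb, and members with 1 sign in all donors as labelled, with 1 sign and at least 0.5 in the 3 donors other than R02046, or with an adjusted p under 0.05. Other members given by library were chosen after their values were seen.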

Additional observations from a re-analysis of the deposited data

Results flagged for a closer look

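In groups of 4 libraries or 4 within-donor differences, a value is listed here when its gap to the nearest other value is large against the group's range (Dixon's 95% critical value). Of 99 such groups of the 33 genes, 8 held such a value, and chance alone gives about 1 in 20.

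R02046 supplied 4 of them. The NFE2L2 difference of R02046 was 0.41, above those of the other donors. GCLC with MRS2578 was highest in R02046, at 10.83 log2 CPM (1823 CPM). TXNRD1 with uLPS was lowest in R02046, at 8.885 log2 CPM (473 CPM). SOD1 with uLPS was highest in R02046, at 6.871 log2 CPM (117 CPM). These 4 rest on R02046's libraries as labelled.

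R12016 and R14143 supplied the rest. The GCLM difference of R12016 was 1.12, and FTL with MRS2578 was highest in R12016, at 9.057 log2 CPM (533 CPM). In R14143 with MRS2578, TALDO1 was lowest at 9.016 log2 CPM (517 CPM) and GPX4 was lowest at 6.297 log2 CPM (78.5 CPM).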

How the results depend on the processing

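With the labels, 0 genes passed (624 at an unadjusted p of 0.05). DESeq2's Wald test called 1, edgeR's likelihood ratio test 5 and the exchange of R02046's libraries 75, and members called went from 0 to 1 under the exchange alone. With R02046 exchanged, 75 genes and 1 member passed, and leaving out a donor gave 0 to 918 genes and 0 to 6 members. The 918 genes and 6 members came without R14143, whereas 0 genes passed without R07110 and 5 genes and 0 members without R12016. Without the donor block that pairs the libraries, 0 genes and 0 members passed, and NFE2L2 had an adjusted p of 0.646. DESeq2 called 583 genes, the likelihood ratio test 616 and each called 3 members (NFE2L2, HMOX1 and GCLC). EdgeR's earlier quasi-likelihood estimation, added after the data were seen, called 39 genes and 0 members, with NFE2L2 at an adjusted p of 0.0531. The block changed no call with the labels.

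Near 0, signs turned. With the labels, leaving out a donor gave KEAP1 -0.048 to 0.013, FTL -0.0896 to 0.16, PRDX6 -0.054 to 0.067 and GSTP1 -0.14 to 0.058. Scaling by library totals gave KEAP1 0.036 and GSTP1 0.039, and the exchange gave PRDX6 -0.048 and GSTP1 0.10. With R02046 exchanged, KEAP1 reached 0.015 without R07110. The cause was not tested. HMOX1 and NFE2L2 kept their directions in every fit run, at 0.59 to 1.31 and -0.74 to -0.31. EPHX1 and MGST1 are limited by their few counts.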
